A study of Sus scrofa with 6 samples.

Results

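Predicted opposite arms of known miRNA hairpins were read from small RNA libraries of milk and milk exosomes of Rongchang pigs. They are the entries named as a -p5 or -p3 product of a hairpin that is already known, leaving out the candidates named PC-, and they made up 80 of the 1242 distinct entries of the deposited table, or 6.44%. The 80 entries carried 75 distinct sequences and 52 hairpin names. Pig hairpins gave 53 of the entries and hairpins named from other species gave 27. Milk and the exosomes in it, which are small membrane vesicles that cells release, gave 3 libraries each. All 6 came from the same breed, with no treatment named in the labels. The design text speaks of individual animals as replicates, and no label ties a milk library to an exosome library of the same animal, so p-values here measure the spread between these samples.

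A miRNA hairpin is cut by the enzyme Dicer into a short duplex of a 5′ arm and a 3′ arm. An Argonaute protein usually keeps one strand, the guide, and the other strand, called the passenger or star strand, is degraded and is therefore scarce. The strand that is kept pairs with messenger RNAs mainly through its seed, bases 2 to 8, so that the opposite arms of a hairpin address different targets. The duplex carries short 3′ overhangs, so a true opposite arm should pair with the annotated arm with both 3′ ends jutting out by a few bases.

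Sequences of 5 named opposite arms that pair with an annotated arm over 14 or more bases are given first. They include the most abundant one, and ssc-mir-582-p5 and ssc-mir-7857-p5, whose means are closest in ratio to those of their annotated arms. Each is followed by the annotated arm of the hairpin, 5′ to 3′ as DNA letters from the deposited table with the seed in capitals.
ssc-mir-486-2-p3: cGGGCCAGctcagtacccggcg
ssc-miR-486: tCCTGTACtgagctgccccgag
ssc-mir-9841-p5: gTGGGTGCtcgatgctagatg
ssc-miR-9841-3p: tCTAGCATcgagcacccgcct
bta-mir-1842-p3_1ss21GT: aGCAGGCCtgtcagggcgttt
bta-miR-1842_L+1R-2_1ss10TC: tTGGCTCTgcgaggtcggct
ssc-mir-7857-p5: aTAGCCAGtttgggaagaatg
ssc-miR-7857-3p: aTTGTTCTccaacctggctctt
ssc-mir-582-p5: tAACCGGTtgaacaactgaacc
eca-miR-582-5p_R-1: tTACAGTTgttcaaccagttac
miR-486 is abundant in red blood cells and their precursors. The annotated arm of a pair is the listed entry of the same hairpin with the highest mean that shares no stretch of 15 or more consecutive bases with the opposite arm. For this match, hairpin names were compared without species prefix, arm, copy number and variant suffix. An annotated arm can thus carry the name of another species or come from another copy of the hairpin. A share of a pair is therefore not always a share within 1 hairpin. The 5 opposite arms have 5 different seeds, and none of these is also the seed of an annotated entry of the table. The bases of the ssc-mir-582-p5 seed do lie inside the annotated eca-miR-582-3p_L+1R+1, which contains this whole opposite arm but starts earlier. ssc-mir-9841-p5 and ssc-miR-9841-3p form a predicted duplex of 19 base pairs at -38.8 kcal/mol, with 3′ overhangs of 2 and 2 bases. For ssc-mir-486-2-p3 and ssc-miR-486 the duplex has 17 base pairs at -29.0 kcal/mol and overhangs of 1 and 2 bases, and for ssc-mir-7857-p5 it has 16 base pairs at -19.7 kcal/mol and overhangs of 1 and 1. bta-mir-1842-p3_1ss21GT pairs with its annotated arm over 14 base pairs at -22.2 kcal/mol, with overhangs of 1 and 0.

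A second set shows entries whose name and sequence disagree. Here capitals mark the stretch that the entry shares with an annotated entry of the same hairpin.
ssc-mir-22-p5: AAGCTGCCAGTTGAAGAA
xtr-miR-22-3p: AAGCTGCCAGTTGAAGAActgt
ssc-mir-339-1-p5: TGAGCTCCTCGAGGCCAGA
ssc-miR-339-3p_L+2R-2: TGAGCTCCTCGAGGCCAGAgc
ssc-mir-374a-p5: CTTATCAGGTTGTATTGTAA
chi-miR-374a-3p: CTTATCAGGTTGTATTGTAAtt
ssc-mir-664-p5: TATCTCCCAGCCTACAaaa
ssc-miR-664-3p: tattcattTATCTCCCAGCCTACA
ssc-mir-22-p5 is 18 bases long, and all of it lies at the start of xtr-miR-22-3p, the annotated 3′ arm. A deposited entry with an annotated pig name, ssc-miR-22-3p_R-4, has the same sequence and the same values in all 6 libraries. ssc-mir-339-1-p5 lies within the 3′ arm over 19 bases, and the same sequence is listed again as ssc-mir-339-1-p3_1. ssc-mir-374a-p5 shares all of its 20 bases with an annotated 3′ arm. ssc-mir-664-p5 and ssc-mir-664-p3 are 1 sequence, of which 16 bases lie in ssc-miR-664-3p. ssc-mir-582-p5, printed above, has all of its 22 bases inside eca-miR-582-3p_L+1R+1 and pairs with eca-miR-582-5p_R-1 over 17 base pairs at -24.3 kcal/mol with overhangs of 1 and 1, so its sequence is that of a 3′ arm under a p5 name.

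Sorted by sequence, 30 of the 80 entries shared 15 or more consecutive bases with an annotated entry, 23 of them with an entry of the same hairpin name. Where that entry of the same hairpin names an arm, in 13 cases, it was the arm of the p5 or p3 label in 7 and the other arm in 6. The other 7 shared their stretch with another name: 5 entries of ssc-mir-4332 with mmu-miR-5126_1ss18CT, mmu-mir-101c-p3 with ssc-miR-101_R+1 over 19 bases, and mmu-mir-451b-p5_1ss19AG with ssc-miR-451 over 18 bases. Of the 50 entries with no such stretch, 16 from 15 hairpins pair with their annotated arm over 14 or more base pairs, 15 pair over fewer, and for 19 no annotated arm without such a stretch is listed. The 16 have a median predicted energy of -20.1 kcal/mol, and in 10 of them both 3′ overhangs are 0 to 4 bases. In 6 of them both are 1 to 3 bases, so that both 3′ ends jut out. These limits of 15 bases and 14 pairs were set after the sequences were seen, and the sorting is a description.

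Several hairpins were counted more than once. 5 hairpins, ssc-mir-4332 with 11 entries, ssc-mir-339-1 with 7, ssc-mir-4331 with 5, ssc-mir-4335 with 4 and ssc-mir-1285 with 3, gave 30 of the 80 entries, and 44 hairpins gave 1 entry each. 5 sequences are listed under both a p5 and a p3 name. 20 entries of 5 hairpins had the same values in every library as another entry of their hairpin, which left 59 distinct sets of values above 0. The 2 predicted arms of ssc-mir-4337, a hairpin with no annotated arm listed, pair with each other over 17 base pairs at -23.4 kcal/mol, but their 3′ ends stop short of the other strand's 5′ end by 4 and 5 bases.

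The 75 sequences were shorter and richer in G and C than the 1063 distinct sequences with annotated names. Their median length was 20 bases, from 18 to 24, against 22, and 26.7% of them were under 20 bases against 13.2%. The median GC content was 60.9% against 47.8%, and in ssc-mir-4332 it ran from 81.0% to 95%. T, a common first base of guide strands, began 28% of the opposite arms and 44.4% of the annotated sequences, while G began 24% and 9.69%. The 16 entries that pair with their annotated arm and share no stretch with it had a median length of 21.5 bases, and 13 of them were 21 to 24 bases long. Among the 75 sequences, 15 have a seed that an annotated entry also has, but of the 16 pairing entries only 1 does, ssc-mir-99b-p3, whose seed also occurs in entries of miR-99a and miR-100.

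The values are normalized abundances, and their precision depends on depth, which differed widely. With the most frequent value above 0 taken as 1 read, the total was 9472868 read equivalents for milk 1, 8310812 for milk exosome 3 and 2829 to 13492 for the other 4 libraries. One read is worth 0.0759 in milk 1, 0.0937 in milk exosome 3 and 9.01 to 19.7 in the others. The deep libraries also stood apart by content: hairpins of the erythrocyte list, led by miR-451, held 87.5% and 87.3% of their listed signal, against 2.55% to 8.38% in the other 4. Hairpins of the muscle list held 48.8% in milk exosome 2 and at most 6.84% elsewhere, while hairpins of the epithelial and mammary list held 0.0400% to 7.07% and those of the milk list, the miR-148 and miR-30 families, 0.951% to 9.88%. The part of these differences in the results below was not tested, and results that rest on the deep libraries are also given without them.

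**Figure D1:**
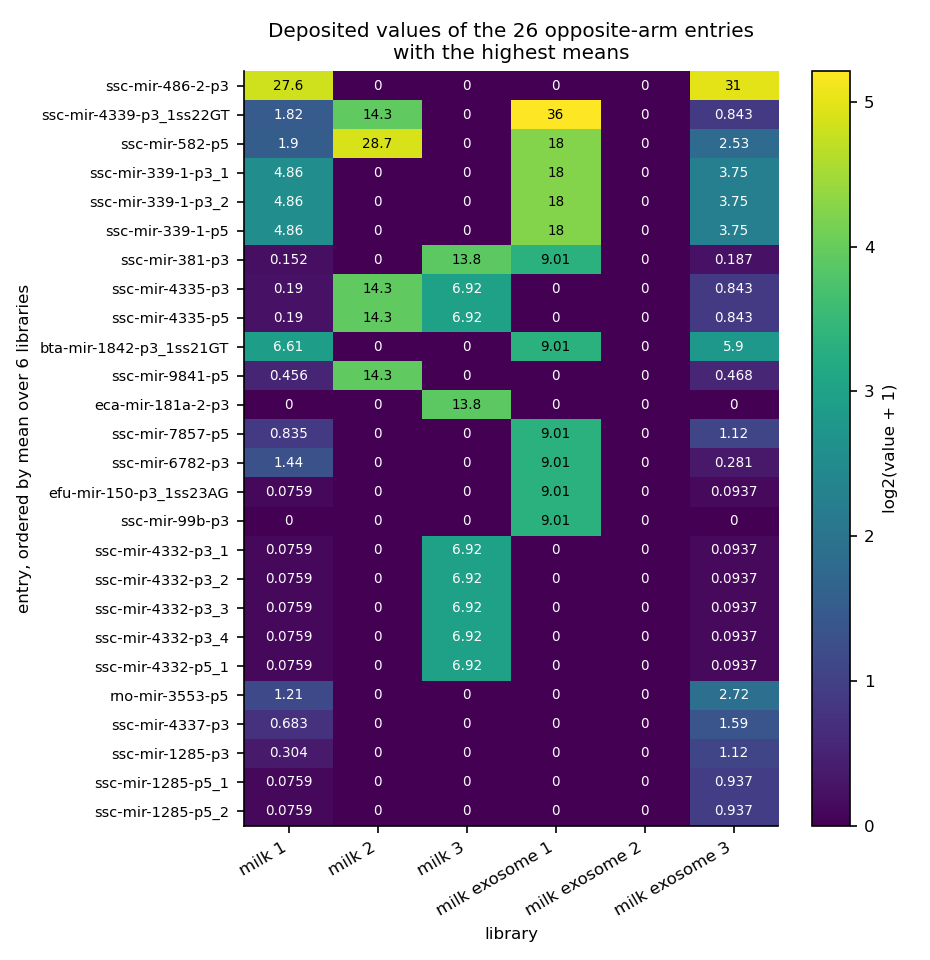
Deposited values of the 26 opposite-arm entries with the highest means over 6 libraries, 1 row per entry and 1 column per library. Numbers are the deposited values and colours show log2(value + 1). ssc-mir-486-2-p3 is seen only in milk 1 and milk exosome 3, milk exosome 2 has none, and several entries of ssc-mir-339-1 and ssc-mir-4332 carry the same values.

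Opposite arms were rare in every library. 60 entries were above 0 in milk 1 and 54 in milk exosome 3, but only 5 in milk 2, 9 in milk 3 and 11 in milk exosome 1, and none in milk exosome 2. With equal values of a hairpin counted once, there were 49 in milk 1 and 43 in milk exosome 3. On that count milk 2 had 4, milk 3 had 4, milk exosome 1 had 9 and milk exosome 2 had 0. 9 of the 80 were at 0 in all 6 libraries (11.3%, against 7.57% of all entries), 26 were above 0 in 1 library, 27 in 2, 13 in 3 and 5 in 4. 51 entries were seen only in the deep libraries and 2, ssc-mir-99b-p3 and eca-mir-181a-2-p3, only in a shallow one, at 1 read each. No entry reached more than 4 reads in a shallow library. In the deep libraries 56 of the 80 entries stood at 3 reads or fewer in both, and 1, ssc-mir-486-2-p3, exceeded 100 reads. Annotated entries were above 0 about as often, 71.6% of 1125 in milk 1 against 75.0% of the opposite arms, but with a median of 11 reads where above 0, against 1.75 for the opposite arms.

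The share of all listed signal held by the 75 sequences was 0.00807% in milk 1 (764 read equivalents, 95% exact Clopper-Pearson interval 0.00750% to 0.00866%) and 0.00825% in milk exosome 3 (686 reads, 0.00765% to 0.00890%). It was 0.0727% in milk 2 (5 reads, 0.0236% to 0.169%), 0.159% in milk 3 (4.5 reads, 0.0574% to 0.412%) and 0.119% in milk exosome 1 (16 reads, 0.0678% to 0.193%). None was found in milk exosome 2, where 3 of 4507 reads would be a share of 0.0666%. The 2 deep libraries, 1 of each group, differed by less than their intervals, and the 2 groups overlapped. Milk averaged 0.0799% ± 0.0758 and exosomes 0.0423% ± 0.0662 (SD, n = 3 each), and a two-sided exact permutation test gave p = 0.6, where 0.1 is the smallest p that 3 against 3 allows. Without the 2 deep libraries the difference was -0.0566 percentage points (exact p = 0.667). Outside the erythrocyte hairpins the share was 0.0340% in milk 1 and 0.0336% in milk exosome 3, against 0 to 0.172% in the shallow libraries. The number of entries above 0 averaged 24.7 ± 30.7 in milk and 21.7 ± 28.5 in exosomes (SD, n = 3 each, exact permutation p = 0.8). The deep library of each group had the most, and the difference, -3 entries, became -1.5 without them.

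**Figure D2:**
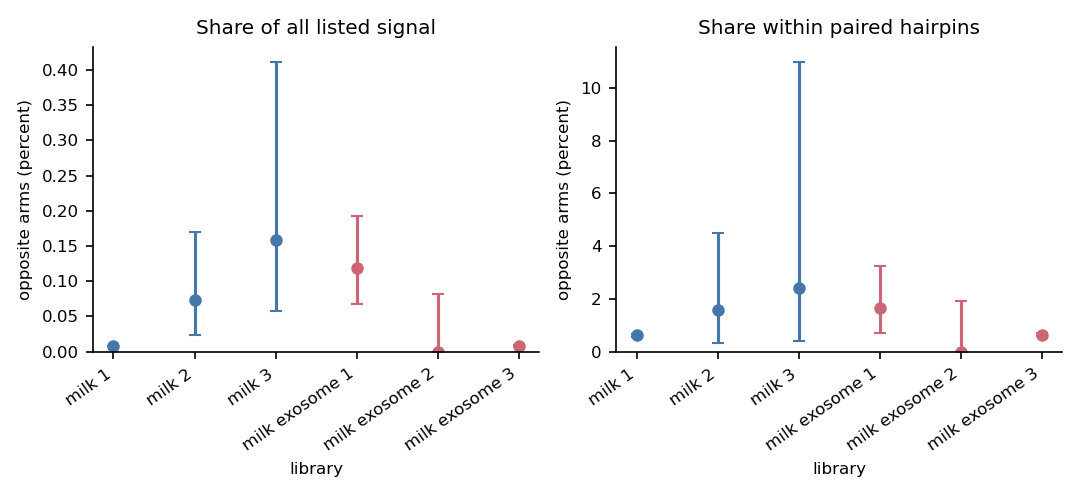
Percent of listed signal held by the opposite arms (left) and percent of the signal of paired hairpins held by their opposite arm (right), 1 point per library with its exact 95% interval, milk in blue and milk exosome in red. The deep libraries milk 1 and milk exosome 3 lie at 0.00807% and 0.00825% on the left and at 0.618% and 0.635% on the right, and the intervals of the shallow libraries are wide.

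ssc-mir-486-2-p3, the passenger-side product of the hairpin of miR-486, held 47.5% of the opposite-arm signal of milk 1 and 48.3% of that of milk exosome 3. Its value was 27.6 in milk 1 (363 reads, Poisson interval 24.8 to 30.6) and 31.0 in milk exosome 3 (331 reads, 27.8 to 34.5), and it was listed at 0 in the other 4. ssc-miR-486 itself stood at 2896 in milk 1, 617 in milk 2, 96.8 in milk 3, 351 in milk exosome 1, 2084 in milk exosome 2 and 3325 in milk exosome 3. The opposite arm thus made up 0.943% of the pair in milk 1 (0.849% to 1.04%) and 0.924% in milk exosome 3 (0.828% to 1.03%), and these intervals overlap. In milk exosome 1, where the pair had no read of the opposite arm, the interval reaches 9.03%, so a share of 1% was not detectable there.

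bta-mir-1842-p3_1ss21GT, named from a cattle hairpin, had the next highest mean among the opposite arms that pair with their annotated arm and share no stretch with an annotated entry. It stood at 6.61 in milk 1, 9.01 in milk exosome 1 and 5.90 in milk exosome 3, from 87, 1 and 63 reads, and at 0 in milk 2, milk 3 and milk exosome 2. Beside bta-miR-1842_L+1R-2_1ss10TC it held 10.9% of the pair in milk 1 (8.81% to 13.3%) and 12.0% in milk exosome 3 (9.36% to 15.1%). ssc-mir-7857-p5 stood at 0.835, 9.01 and 1.12 in the same 3 libraries and held 36.7% (19.9% to 56.1%) and 35.3% (19.7% to 53.5%) of its pair in the deep ones. There the annotated arm ssc-miR-7857-3p was itself scarce, at 1.44 and 2.06. ssc-mir-9841-p5 was 0.456 in milk 1, 14.3 in milk 2, from a single read, and 0.468 in milk exosome 3. Its share of the pair was 0.374% (0.137% to 0.812%) in milk 1 and 0.490% (0.159% to 1.14%) in milk exosome 3. In milk 2 the single read made up 12.5% (0.316% to 52.7%).

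ssc-mir-582-p5, the entry with a 3′ arm sequence, was seen in 4 libraries, at 1.90 in milk 1, 28.7 in milk 2, 18 in milk exosome 1 and 2.53 in milk exosome 3, from 25, 2, 2 and 27 reads. It made up 48.1% of its pair in milk 1 (34.0% to 62.4%) and 35.1% in milk exosome 3 (24.5% to 46.8%); equal arms lie inside the first interval and above the second. The entries of ssc-mir-339-1 that lie in the annotated 3′ arm had 64 reads in milk 1, 2 in milk exosome 1 and 40 in milk exosome 3, at 4.86, 18 and 3.75. ssc-miR-339-3p_L+2R-2, which contains them, stood at 11.7 in milk 1, 9.01 in milk exosome 1 and 8.15 in milk exosome 3, and ssc-miR-339_R-1, the abundant arm, at 2619, 770 and 2195. The ssc-mir-339-1-p3_1 entry held 0.185% (0.143% to 0.236%) of the pair in milk 1 and 0.170% (0.122% to 0.232%) in milk exosome 3. In milk exosome 1 it held 2.29% (0.276% to 7.97%), from 2 reads. ssc-mir-22-p5 was 0.456 in milk 1 and 0.141 in milk exosome 3, while xtr-miR-22-3p, the 3′ arm that contains it, was 1194 and 1401.

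**Figure D3:**
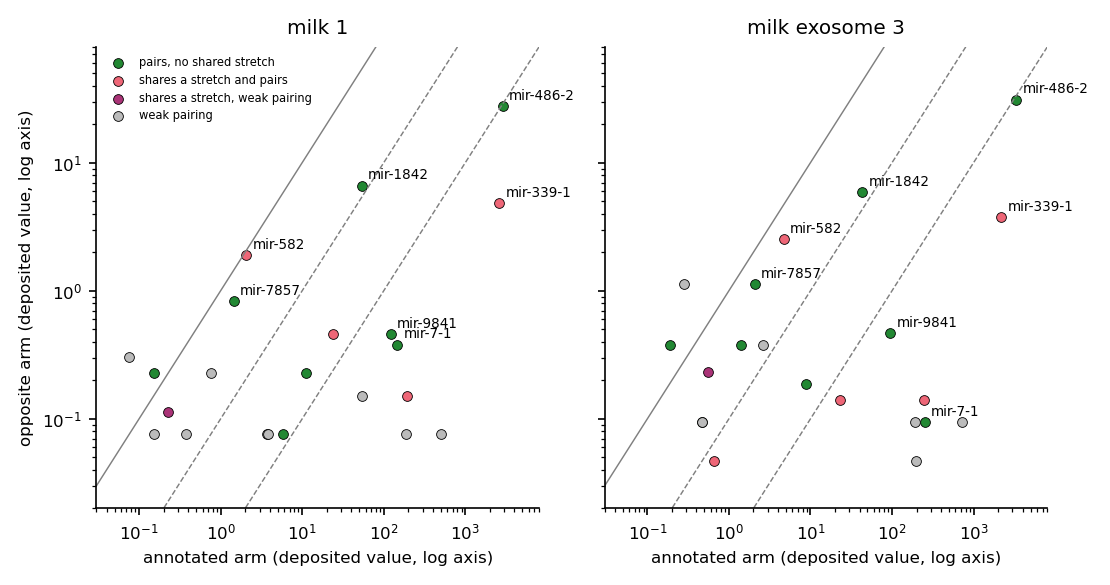
Value of the opposite arm against that of the annotated arm for hairpins with both above 0 in milk 1 (22 hairpins) and milk exosome 3 (21 hairpins), log axes. Colours give the relation of the 2 sequences. The solid line marks equal values and the dashed lines an opposite arm at 1 to 10 and 1 to 100 of the annotated one. ssc-mir-486-2 lies near the 1 to 100 line in both libraries, and ssc-mir-582 and ssc-mir-7857 lie near equality.

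Across the 31 hairpins with an annotated arm and an opposite arm above 0 in some library, the opposite share of the summed signal was 0.618% in milk 1 (0.570% to 0.670%), 1.57% in milk 2 (3 reads, 0.323% to 4.50%), 2.40% in milk 3 (1.5 reads, 0.387% to 11%), 1.67% in milk exosome 1 (8 reads, 0.724% to 3.26%), 0% in milk exosome 2 (up to 1.91%) and 0.635% in milk exosome 3 (0.582% to 0.691%). Milk averaged 1.53% ± 0.891 and exosomes 0.768% ± 0.843 (SD, n = 3 each), a difference of -0.760 percentage points that a two-sided exact permutation test did not separate (p = 0.5). Without the 2 deep libraries it was -1.15 points (exact p = 0.667). Among the hairpins whose arms pair and share no stretch the difference was 0.681 points, in the other direction (exact p = 0.9). In milk 1, where both arms were above 0 in 22 hairpins, the opposite share ran from 0.0149%, in mir-150, to 80%, in ssc-mir-1285. These extremes come from duplexes of 8 and 3 base pairs, with 1 and 4 reads of the opposite arm. Among hairpins whose arms pair and share no stretch, the range was 0.257% to 60%. The median over the 22 was 1.98%, and in milk exosome 3 the median over 21 hairpins was 6.67%. Both medians leave out hairpins with an arm at 0. Over the 30 hairpins with either arm above 0 in the library, they were 1.93% in milk 1 and 0.761% in milk exosome 3. For comparison, in the 47 pig hairpins with both arms annotated and above 0, the scarcer arm held a median of 10.6% in milk 1 and 10.6% in milk exosome 3. With arms at 0 counted, it held 6.71% over 55 such hairpins in milk 1 and 4.99% over 54 in milk exosome 3.

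The arms of 17 hairpins could be set against each other in at least 1 library of each group, and only ssc-mir-582 in 2 libraries of each, so the change of the arm ratio was not tested. On the log2 scale the ratio of opposite to annotated arm was -6.72 in milk 1 and -6.74 in milk exosome 3 for ssc-mir-486-2. It was -0.11, 2, -0.58 and -0.89 for ssc-mir-582 in milk 1, milk 2, milk exosome 1 and milk exosome 3, so that both milk values lay above both exosome values. In milk 2 and in milk exosome 1 that ratio comes from 2 reads of the opposite arm each. As shares of the pair, the intervals there were 9.43% to 99.2% and 5.27% to 85.3%. They overlap each other and those of the deep libraries. For bta-mir-1842 it was -3.03 in milk 1, -2.58 in milk exosome 1 and -2.87 in milk exosome 3. The median difference over the 17, exosome minus milk, was -0.26. It rests on the deep libraries: without milk 1 only 2 hairpins were left, with a median of -3.80, and without milk exosome 3 there were 5, with 0.79.

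Other hairpins named for a high ratio of opposite to annotated arm had few reads of either. eca-mir-1543-p5_1ss11TC stood at 0.228 and 0.375 in milk 1 and milk exosome 3 beside 0.152 and 1.41 for its annotated arm, and eca-mir-1248-p3_1ss1TA at the same 0.228 and 0.375 beside 0.759 and 2.62. ssc-mir-4332-p3_1 stood at 0.0759, 6.92 and 0.0937 in milk 1, milk 3 and milk exosome 3. Its annotated arm ssc-miR-4332_L-1R-1 stood at 0.152 in milk 1, 43.0 in milk 2, 9.01 in milk exosome 1 and 0.468 in milk exosome 3, and at 0 in the other 2 libraries. hsa-mir-7705-p3_1ss22GT was seen at 0.0937 in milk exosome 3 only, ssc-mir-1277-p5_1ss1AC at 0.0468 there, and ssc-mir-7135-p5_1ss18GT at 0.0759 in milk 1 only, each at 1 read or less. ssc-mir-4338-p3, which pairs with its annotated arm over 19 base pairs, had 2 reads in milk 1 and 7 in milk exosome 3, at 0.152 and 0.656, while ssc-miR-4338_L-1R+2 was at 0 in both, which 3 reads would allow up to 0.228 and 0.281.

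Entries with no annotated arm to compare were among the most widely seen. ssc-mir-4339-p3_1ss22GT stood at 1.82 in milk 1, 14.3 in milk 2, 36.0 in milk exosome 1 and 0.843 in milk exosome 3, from 24, 1, 4 and 9 reads. ssc-mir-381-p3 stood at 0.152 in milk 1, 13.8 in milk 3, 9.01 in milk exosome 1 and 0.187 in milk exosome 3, from 1 or 2 reads in each. ssc-mir-4335-p3 and ssc-mir-4335-p5, 1 sequence under 2 names, stood at 0.190 in milk 1, 14.3 in milk 2, 6.92 in milk 3 and 0.843 in milk exosome 3. The first 2 were at 0 in 1 milk library and in milk exosome 2, and their groups overlap. The ssc-mir-4335 sequence was above 0 in all 3 milk libraries and in 1 of the exosome libraries, whose 0.843 lies above milk 1, so the groups overlap there only through the deep libraries.

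The erythrocyte list had 1 opposite arm, ssc-mir-486-2-p3. The lists match hairpin names exactly, so mmu-mir-451b-p5_1ss19AG, which shares 18 bases with ssc-miR-451, is not in it, and it stood at 0.0759 in milk 1 and 0.0937 in milk exosome 3. Of the leukocyte list 2 were listed, efu-mir-150-p3_1ss23AG, at 0.0759 in milk 1, 9.01 in milk exosome 1 and 0.0937 in milk exosome 3, 1 read each, and bta-mir-146a-p3_1ss20CA, at 0.5 reads in milk exosome 3. The list of miRNA clusters gave sha-mir-24-1-p5_1ss2GC, at 1 read in each deep library, and let-7 gave ssc-let-7c-p3, at 2 reads in milk 1. The muscle, epithelial and mammary, milk, and endothelial and stromal lists gave none, although annotated arms were listed for 6 of 6, 11 of 12, 8 of 8 and 11 of 11 of their hairpins. bta-mir-133c-p5, of a miR-133 hairpin that the muscle list does not name, was at 0 in all 6 libraries. The duplexes of mir-150, let-7c and mir-24-1 have 8, 11 and 11 base pairs.

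None of the 80 entries entered the comparison of all entries, milk exosome against milk, since none reached a value of 10 in 3 libraries. That fit with limma on log2(value + 1) tested 239 entries, and 0% passed an adjusted p of 0.05, none even at an unadjusted p under 0.05. With entries above 0 in 2 or more libraries, 45 opposite arms were among 865 entries tested, again 0% were called, 3 entries had an unadjusted p under 0.05, and none of these 3 was an opposite arm. The median difference of the 45, exosome minus milk, was 0.05 on the log2(value + 1) scale, against 0.03 over all 865. The smallest p among them belonged to 5 entries of ssc-mir-4332 with equal values, ssc-mir-4332-p3_1, -p3_2, -p3_3, -p3_4 and -p5_1, at -0.99 (SE 0.72, 95% interval -2.50 to 0.53, unadjusted p = 0.188, limma adjusted p = 0.999). In milk, that value comes from 0.5 reads in milk 3 and 1 read in milk 1. For ssc-mir-486-2-p3 the difference was 0.05 with an interval that reaches 5.05, so a wide difference between the groups would not be detected. Without the 2 deep libraries 5 opposite arms were above 0 in enough libraries to be tested and 0 were called. Of these, 2 had an unadjusted limma p under 0.05, as did 50 of all 359 entries tested. They were ssc-mir-4335-p3 and ssc-mir-4335-p5, which are 1 sequence with equal values. Their log2 difference, exosome minus milk, was -3.46 (limma adjusted p = 0.119), from 1 read in milk 2 and 0.5 reads in milk 3 against 0. As they passed the filter only through the milk libraries, where they are high, the filter fixed the direction. This p is therefore no evidence of a difference between the groups.

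**Figure D4:**
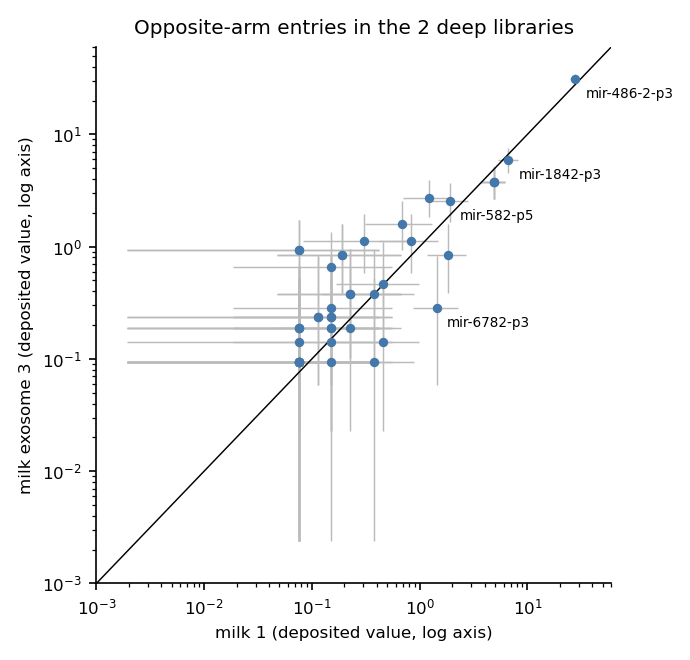
Value in milk exosome 3 against value in milk 1 for the 45 opposite-arm entries above 0 in both, log axes, with Poisson 95% intervals on rounded read equivalents, and the line of equal values. ssc-mir-486-2-p3 and mir-1842-p3 lie at the line with short bars, and ssc-mir-6782-p3 lies below it.

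Of the 69 opposite arms above 0 in either deep library, 45 were above 0 in both (65.2%), 15 in milk 1 only and 9 in milk exosome 3 only. Over all entries, 75% of 1012 were above 0 in both. With 1 deep library in each group the difference between them has no replicate check, and the intervals cover counting error only. Over the 8 entries of 10 or more reads in both, the log2 difference, milk exosome 3 minus milk 1, ran from -0.38 to 1.16 with a median of 0.00, or 0.29 over 6 when the equal ssc-mir-339-1 entries are counted once, against 0.20 over all 415 entries of that depth. Over the 45 entries above 0 in both the median was 0.30, with 33 higher in milk exosome 3, and over all 759 such entries of the table it was also 0.30. The intervals of 3 of the 80 opposite arms did not overlap, or 2 when equal values are counted once, where 14.5% of all 1242 entries had intervals that did not overlap. ssc-mir-6782-p3 shares 17 of its 20 bases with the annotated ssc-miR-6782-3p_R+1. The opposite arm had 19 reads in milk 1 and 3 in milk exosome 3, at values of 1.44 and 0.281. The annotated entry stood at values of 6.83 and 1.97. ssc-mir-1285-p5_1 and ssc-mir-1285-p5_2, which carry equal values, had 1 read in milk 1 and 10 in milk exosome 3. rno-mir-3553-p5 had 16 and 29 reads and ssc-mir-4337-p3 had 9 and 17, with overlapping intervals.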

How the data were processed

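Per the labels' protocols, total RNA of Rongchang pig milk (3 samples) and of its exosomes (3 samples) went into TruSeq small RNA libraries. The deposited values are a signal, a normalized miRNA abundance by the authors. How the reads were aligned, annotated and normalized is not given in the sources used here. All member values were multiples of 0.5 reads (tolerance 0.01 reads) but not all were whole, so no count model was used.

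The 2 sheets, of 1382 and 279 lines, were joined and repeated name and sequence pairs dropped. The headers of the larger sheet match no label: its 6 columns were assigned by the key given for the study, and each equalled its labelled column on 245 of 245 shared entries (relative difference 1e-09), among them 17 opposite arms. The other 63 rest on that key. Members, lists and tests were chosen with earlier results of these data known. Named members are the 10 with the highest mean, the 10 with the highest ratio to the annotated arm, those above 0 in 4 or more libraries (up to 10), the 5 with the smallest p, and the most abundant of each list of hairpins. Others were named after their values were seen.

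Depth was read by taking the most frequent value above 0 as 1 read. As no molecular identifiers mark the reads, the 95% intervals (Clopper-Pearson for shares, Poisson for values, on rounded reads) and the floor of 3 reads cover counting error only. Arms were paired with RNAduplex 2.7.2. Milk exosome was set against milk in R 4.3.3 by limma 3.58.1 (trend on) with log2(value + 1), entries of 10 or more in at least 3 libraries, and Benjamini-Hochberg adjustment over all entries, a scale that understates changes of low entries. As no member passed that filter, members are given from the fit of entries above 0 in 2 or more libraries. Single values were compared by two-sided exact permutation, with scipy 1.17.1 under Python 3.11.15. Tables were read with pandas 2.3.3 and numpy 2.4.6, and figures drawn with matplotlib 3.10.9. Alternatives were a replicate block, other filters, pseudocounts of 0.1 and 10, rescaled totals, no trend, 1 entry per sequence, pig names only, other denominators and annotated arms, and each library left out. No genome or hairpin sequences were used, so positions are not given.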

Additional observations from a re-analysis of the deposited data

How the results depend on the processing

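limma called 0 entries under all 15 alternatives, the replicate block included. Opposite arms were tested under only the 2 wider filters, with 0 called. The intervals are wide, for example -4.94 to 5.05 for ssc-mir-486-2-p3, so these 0 counts say nothing about stability or about the absence of a difference. With entries above 0 in 2 or more libraries, leaving out milk exosome 3 gave 3 called entries, none an opposite arm. No label says that replicate numbers pair the libraries. Deviations of same-numbered libraries correlated at -0.22, 0.38 and -0.54, and those of the deep libraries, milk 1 and milk exosome 3, at 0.83. As the deep libraries carry different numbers, these correlations cannot tell whether the numbers pair animals. With paired differences (replicate block) the share of listed signal differed by -0.0376 points (exact permutation p = 0.75), the number detected by -3 (p = 0.75) and the share within pairs by -0.760 points (p = 0.5). Leaving out 1 library turned the direction of 2 of these: the share of listed signal ranged from -0.0758 to 0.00192 points (positive without milk 3), and the number detected from -19.2 to 14.7 (positive without milk 1, milk exosome 1 or milk exosome 2). The share within pairs ranged from -1.21 to -0.324 points and turned to 0.681 among hairpins whose arms pair and share no stretch, an alternative added after the data were seen. The median arm ratio ranged from -3.80 to 0.79 on the log2 scale. The log2 differences of 5 named members also turned, ranging from -0.75 to 0.89 for ssc-mir-486-2-p3, -1.37 to 1.28 for ssc-mir-4339-p3_1ss22GT, -1.23 to 1.26 for ssc-mir-582-p5, -1.24 to 1.09 for ssc-mir-381-p3 and -0.0097 to 0.029 for sha-mir-24-1-p5_1ss2GC, none passing the test. The arm ratio fit and its replicate block were not run, since 1 hairpin had both arms in 2 libraries of each group. Depth limits the values: in the 4 shallow libraries 1 read is worth 9.01 to 19.7, above every opposite-arm value of the deep ones except that of ssc-mir-486-2-p3.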
